A study of Mus musculus with 8 samples.

Results

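TALE homeobox genes encode the DNA-binding partners of HOX proteins, and 9 of them were followed here in mouse cells carrying the leukaemia fusion NUP98-HOXA9 or deletion mutants of it. The members were Pbx2, Pbx3, Pbx4, Meis1, Meis2, Meis3, Pknox1, Pknox2 and Tgif1. They were taken by name, as probe sets whose only gene symbol in the platform annotation was one of these, and each of the 9 had 1 probe set, among 19938 genes with a single symbol. NUP98-HOXA9 joins the phenylalanine-glycine (FG) repeats of the nucleoporin NUP98 to the homeodomain of HOXA9. The 4 groups were cells of strain C57BL/6 with an empty vector, with full-length NUP98-HOXA9, with the deletion mutant delFG1 or with the deletion mutant delFG2, and each had 2 arrays numbered 1 and 2. The study asked which genes are regulated through the NUP98 part of the fusion. The sources used here do not give the kind of cell, the vector and its promoter, the use of clones or pools, or the residues that each deletion removes. No label ties the 2 arrays of a group to separate cultures or animals. A p-value here therefore sets a difference only against a spread estimated from these arrays, and that spread may be technical.

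TALE proteins carry a homeodomain with a loop extension of extra amino acids. PBX proteins bind DNA next to HOX proteins and sharpen which sites a HOX protein occupies. MEIS and PKNOX proteins bind PBX proteins, hold them in the nucleus and can join the same complexes, while TGIF1 is a repressor that limits transforming growth factor beta and retinoid signalling. In blood, Meis1 is known for hastening leukaemia together with Hoxa9, and PBX3 is a known partner of HOXA9 and MEIS1 in acute leukaemia.

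Promoter sequences from RefSeq (GRCm38.p6) were found for 6 of the 9 members, in 10 windows since Tgif1 has several start sites. These members were Meis1, Meis2, Meis3, Pbx2, Pbx4 and Tgif1. Pbx3, Pknox1 and Pknox2 had no window, so nothing below covers their promoters. Those of Meis1, a member that moved with the fusion, and of Tgif1, the member whose window held a motif, are shown. Each run covers the 250 bases before an annotated start, 5′ to 3′ on the gene's strand, with motif letters in capitals. The Meis1 window is chr11:19018970-19019219 on the minus strand, and the Tgif1 window is chr17:70849791-70850040 on the minus strand.
Meis1: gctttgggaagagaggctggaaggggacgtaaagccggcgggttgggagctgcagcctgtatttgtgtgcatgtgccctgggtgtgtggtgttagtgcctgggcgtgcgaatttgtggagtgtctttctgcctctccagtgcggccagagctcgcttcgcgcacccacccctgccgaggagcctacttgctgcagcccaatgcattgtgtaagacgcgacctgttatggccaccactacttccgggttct
Tgif1: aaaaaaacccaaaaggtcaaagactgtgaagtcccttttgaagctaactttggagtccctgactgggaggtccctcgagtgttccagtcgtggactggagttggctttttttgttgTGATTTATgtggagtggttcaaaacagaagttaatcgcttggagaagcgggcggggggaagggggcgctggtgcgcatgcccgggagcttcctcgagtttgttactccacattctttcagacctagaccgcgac
Both strands were searched for TGACAG, a motif of MEIS and PKNOX proteins, and for TGATTNAT, a motif of HOX proteins with PBX, which share no letters in any window shown. TGACAG was in 0 of the 10 windows and in 15.9% of all 32851 promoter windows of the same length. TGATTNAT was in 1 of the 10, as TGATTTAT at positions -134 to -127 of the Tgif1 window shown, and in 2.82% of all windows. The Meis1 window held neither motif, which says only that these letters are not there.

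Signal is given as log2(intensity + 1), and differences are on that scale unless a linear intensity is named. The deposited intensities had a median between 80.7 and 83.2 in the 8 arrays, and the lowest was 18.3. Arrays of a group correlated with r of 0.995 to 0.996 across genes, whereas the full-length and delFG1 arrays numbered 2 correlated most of all pairs, with r = 0.999. Over the 4 groups, 2435 of 21789 probe sets (11.2%) differed between the arrays numbered 2 and those numbered 1 by limma at an adjusted p under 0.05. The number was therefore also fitted as a block, called the replicate block below, and what it stands for is not stated. Of the 57 measured markers of blood cell types on 6 lists, 1 passed between full-length fusion and empty vector without the block, against 0.124% of all probe sets. With the block 8 passed higher and 27 lower, against 6.61%. No cell type is labelled. The summed signal of the progenitor list ran from 31923 to 36364 in linear intensity. That sum rests mostly on Elane, Mpo and Prtn3, with log2 means of 13.19, 13.07 and 12.71 with the full-length fusion. Ptprc, Kit and Cd34 of the same list stood lower there, at 10.38, 9.09 and 10.68. In these bulk samples fewer cells of a type and less RNA per cell cannot be told apart.

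**Figure D1:**
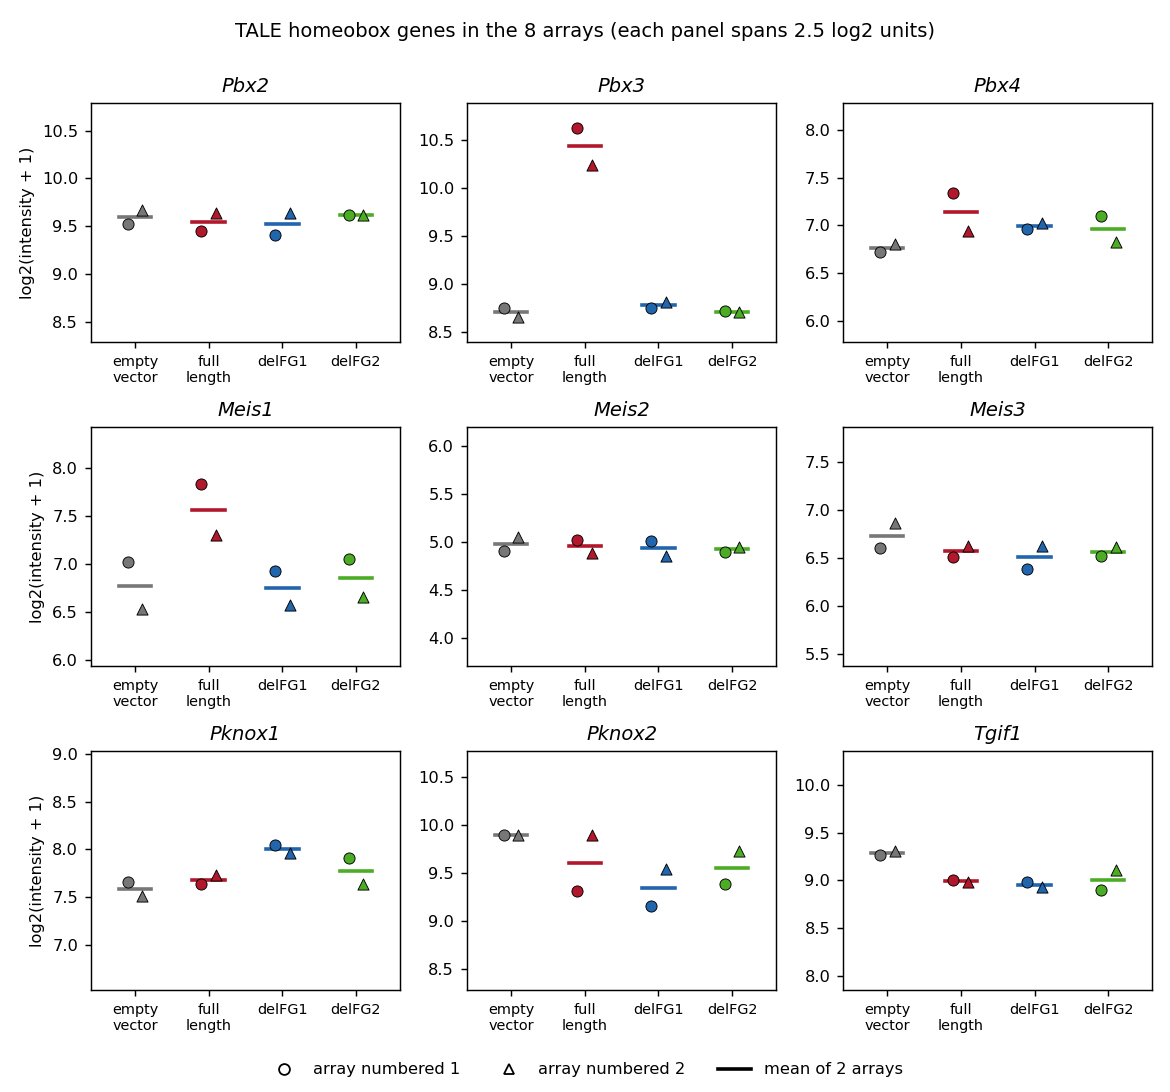
log2(intensity + 1) of the 9 TALE genes (panels) in the 4 groups; circles are the arrays numbered 1, triangles those numbered 2, and bars the mean of 2 arrays. Every panel spans the same height. Pbx3 reached 10.63 and 10.24 with the full-length fusion and stayed between 8.65 and 8.81 in the other 6 arrays; Meis1 is also highest with the full-length fusion, at a smaller distance and with the triangles below the circles in every group.

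Pbx3 was the TALE gene that the full-length fusion raised most, and with either FG deletion it stood near the level of the empty vector. Its signal was 8.75 and 8.65 with the empty vector, 10.63 and 10.24 with the full-length fusion, 8.75 and 8.81 with delFG1, and 8.72 and 8.70 with delFG2. The full-length arrays stood apart from all 6 others, which lay within a range narrower than the gap between the full-length arrays themselves. In linear intensity the probe set went from 400 in its lowest array to 1590 in its highest.

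The rise of Pbx3 with the full-length fusion was 1.74 (95% confidence interval 1.43 to 2.05), a 3.34-fold change with an adjusted p of 0.00276 by limma. The arrays numbered 1 gave 1.89 and the pair numbered 2 gave 1.59. Of the 9 members 1 passed in this comparison, against 0.124% of all probe sets, and 2 passed with the replicate block, against 6.61%.

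With delFG1, Pbx3 fell by 1.66 from the full-length level (interval -1.96 to -1.35, adjusted p = 0.0104 by limma), a 3.15-fold change. With delFG2 it fell by 1.73 (interval -2.03 to -1.42, adjusted p = 0.0074), a 3.31-fold change. Pbx3 was the single member that passed in each of these comparisons, where 0.00918% and 0.0275% of all probe sets passed; with the block it was joined by Meis1, at a background of 0.078% and 0.468%. From full length to delFG1 the arrays numbered 1 gave -1.88, and the pair numbered 2, which correlated most closely over all genes, gave -1.43. The adjusted p of the delFG1 difference rose to 0.375 when the fit held only the 4 arrays of these groups, and leaving out 1 array gave 0.00987 to 0.179 without the block, above 0.05 without the full-length array numbered 1 or without any 1 of the 4 mutant arrays. For delFG2 leaving out either delFG2 array ended the call (up to 0.167), and with the block each of the 8 reduced fits called Pbx3 in all 3 comparisons named here.

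Against the empty vector, the mutants left Pbx3 at differences of 0.08 (delFG1, interval -0.22 to 0.39) and 0.01 (delFG2, interval -0.29 to 0.32). The interval of neither reaches 0.5 on the log2 scale. The mutants differed from each other by -0.07 (interval -0.38 to 0.24).

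Pbx4, a PBX paralogue, had its highest signal with the full-length fusion too, but no difference of it passed. It measured 6.72 and 6.81 with the empty vector, 7.34 and 6.94 with the full-length fusion, 6.96 and 7.02 with delFG1, and 7.10 and 6.83 with delFG2. All 6 arrays with a fusion were above both empty vector arrays, while full-length and mutant arrays overlapped. The difference between full-length fusion and empty vector was 0.37 (interval 0.03 to 0.72), with an adjusted p of 0.485 by limma and 0.137 with the block. The arrays numbered 1 gave 0.61 and the pair numbered 2 gave 0.14.

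Pbx2, another PBX gene, lay between 9.41 and 9.67 in the 8 arrays, and its groups overlapped in all 6 comparisons. The full-length difference from the empty vector was -0.04, with an interval of -0.32 to 0.23.

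Meis1, whose product partners both HOX and PBX proteins, was also highest with the full-length fusion, at a smaller distance from the other groups than Pbx3. Its signal was 7.02 and 6.53 with the empty vector, 7.84 and 7.30 with the full-length fusion, 6.93 and 6.57 with delFG1, and 7.05 and 6.66 with delFG2. The lower full-length array was above every array of the other groups, and the remaining groups overlapped one another. In each group the array numbered 2 was the lower, with differences of -0.49, -0.54, -0.37 and -0.39 in that order of groups.

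That difference between the numbers was -0.44 over the 4 groups (SE 0.07, adjusted p = 0.00318 by limma), so the fit without the block put it into the error of Meis1. The full-length fusion differed from the empty vector by 0.80, 1.74-fold, with an adjusted p of 0.335 without the block and 0.00109 with it (interval with the block 0.57 to 1.02). Within the numbers the difference was 0.82 and 0.77. From the full-length level Meis1 differed by -0.82 with delFG1 and by -0.72 with delFG2 (adjusted p = 1 for each without the block, 0.0143 and 0.012 with it). All 4 of these within-number differences pointed down, at -0.91 and -0.74 for delFG1 and -0.79 and -0.64 for delFG2. With the block, the call against the empty vector held without any 1 array (adjusted p = 0.00142 to 0.0281). Those for delFG1 and delFG2 were lost in 3 and 4 of the 8 reduced fits: without either full-length array, without the delFG1 array numbered 1 (delFG1), and without either delFG2 array (delFG2), with adjusted p of up to 0.376 and 0.22.

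Both mutants left Meis1 near the empty vector, at -0.03 with delFG1 (interval with the block -0.25 to 0.20) and 0.08 with delFG2 (-0.15 to 0.30). Without the block these intervals are wider, -0.57 to 0.51 and -0.46 to 0.62.

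The other MEIS genes gave no call. Meis3 had its highest signal, 6.86, in the empty vector array numbered 2 and its lowest, 6.38, in the delFG1 array numbered 1. Its mean was 6.73 ± 0.18 (SD, n = 2) with the empty vector and 6.50 ± 0.18 with delFG1, and the difference of -0.23 did not pass (adjusted p = 0.645 by limma). Meis2 ranged from 4.86 to 5.05 and was under the 25th percentile of the probe sets (5.38 to 5.45) in 8 of 8 arrays. At so low a signal a difference is hard to see on an array, and the table holds no detection calls.

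Pknox1 and Pknox2 encode MEIS-related proteins that bind PBX. No difference of Pknox1 passed, and Pknox2 passed in 1 comparison, delFG1 against empty vector, with the replicate block alone. Pknox1 measured 7.66 and 7.51 with the empty vector, 7.64 and 7.73 with the full-length fusion, 8.05 and 7.96 with delFG1, and 7.91 and 7.64 with delFG2. Both delFG1 arrays were above the other 6. The difference between delFG1 and empty vector was 0.42 (interval 0.12 to 0.71), with an adjusted p of 0.322 by limma and 0.0516 with the block, so it passed in neither fit. It was 0.39 and 0.44 within the numbers, and delFG1 was 0.32 above the full-length fusion (interval 0.02 to 0.62, adjusted p = 1).

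Pknox2 measured 9.90 and 9.89 with the empty vector, 9.31 and 9.90 with the full-length fusion, 9.15 and 9.54 with delFG1, and 9.38 and 9.73 with delFG2. The empty vector arrays were level with each other, whereas in the 3 groups with a fusion the array numbered 2 was higher by 0.59, 0.39 and 0.35. Over all groups this number difference was 0.33 (adjusted p = 0.0297 by limma). Between delFG1 and empty vector the numbers gave -0.75 and -0.35, and the mean of -0.55 had an adjusted p of 0.45 without the block and 0.0196 with it. With the block that call was lost without the empty vector array numbered 1 or without either delFG1 array (adjusted p of up to 0.178), and without the empty vector array numbered 1 the difference was -0.32. For the full-length fusion the 2 numbers gave -0.59 and 0.01, and the mean difference of -0.29 did not pass in either fit (adjusted p = 0.744 and 0.216).

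Tgif1, which encodes a repressor, lay lower in all 6 arrays with a fusion than with the empty vector, but no difference of it passed. Its signal was 9.27 and 9.31 with the empty vector, 9.01 and 8.98 with the full-length fusion, 8.98 and 8.93 with delFG1, and 8.90 and 9.11 with delFG2. The differences from the empty vector were -0.29, -0.34 and -0.29 in that order, and their adjusted p of 0.433, 0.336 and 1 by limma (0.0936, 0.0569 and 0.242 with the block) did not pass. Full-length and mutant groups differed by at most 0.05 in the mean.

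**Figure D2:**
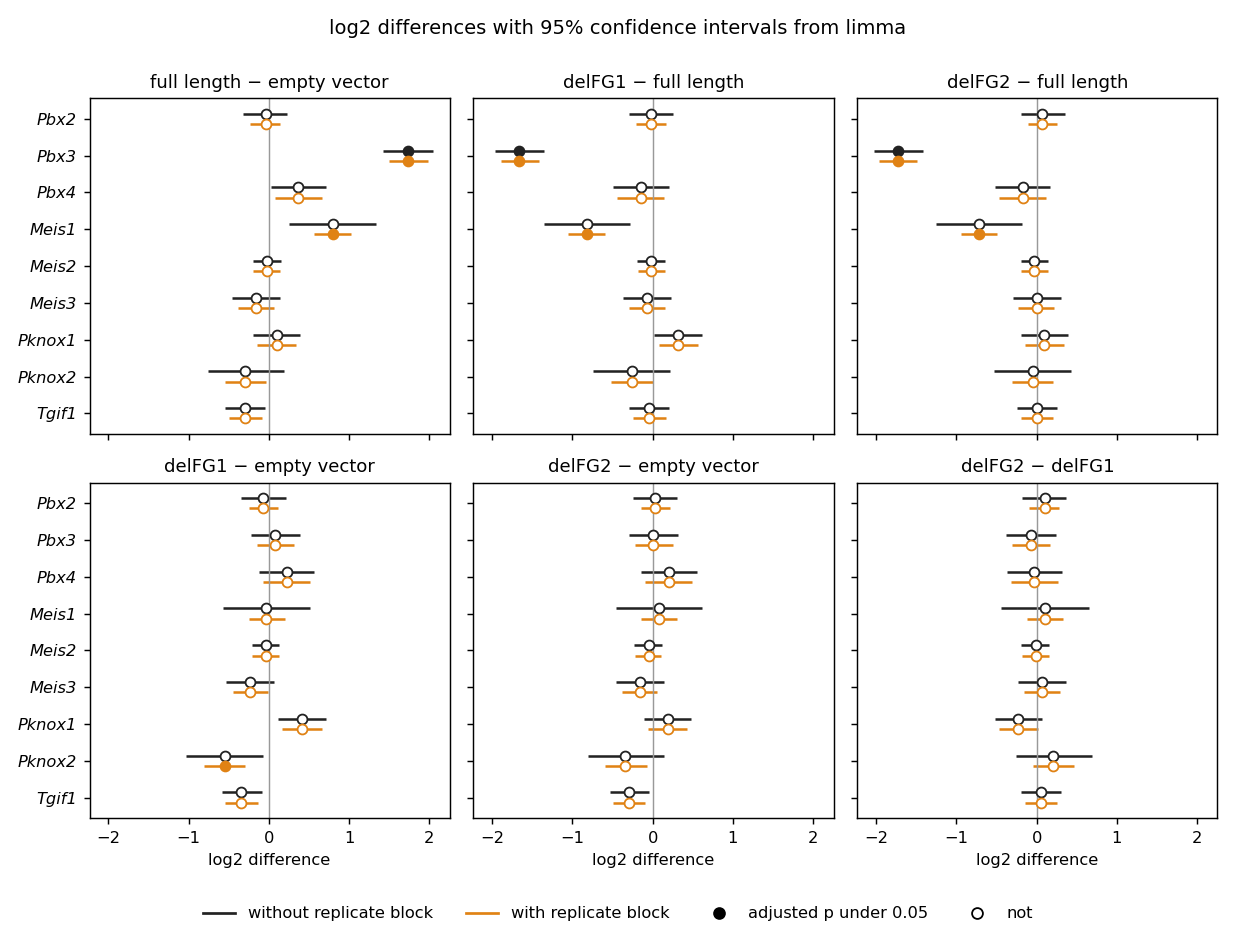
log2 differences (points) with 95% confidence intervals (lines) of the 9 members in the 6 comparisons, from limma without (black) and with (orange) the replicate block; filled points have an adjusted p under 0.05. Filled points are seen for Pbx3 and Meis1 in the top row, where Meis1 is filled with the block alone, and for Pknox2 between delFG1 and empty vector with the block.

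Over the family, 7 of the 9 members differed by under 0.5 between full-length fusion and empty vector, and the median member difference was -0.02, beside 0.02 over all probe sets. In the comparisons of delFG1 and delFG2 with the full-length fusion the medians were -0.07 and -0.03, beside 0.00 and -0.01. Against the empty vector 0 of 9 members passed with delFG1 by limma without the block and 1 with it, against 0.129% and 6.12% of all probe sets. Without the block 3 members had an unadjusted p under 0.05, as had 2093 of all 21789 probe sets. With delFG2 0 members passed in either fit, against 0.00459% and 0.505%. There 1 member had an unadjusted p under 0.05 without the block, as had 965 of all probe sets. With the block 2 members had one, and all probe sets were not counted at that threshold. Between the mutants 0 members passed in either fit and 0 had an unadjusted p under 0.05, where 0 of all probe sets passed without the block (683 with an unadjusted p under 0.05) and 0.537% with it.

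Arrays of the 2 groups did not overlap for 4 of 9 members between full-length fusion and empty vector, where 39.1% of all probe sets did not overlap. The members were Pbx3, Pbx4, Meis1 and Tgif1. Between delFG1 and full length this held for 4 members (25.7% of all), between delFG2 and full length for 2 (25.9%), between delFG1 and empty vector for 5 (40.8%), between delFG2 and empty vector for 3 (29.3%), and between the mutants for 2 (27%). For 9 genes these counts lie close to the shares over all probe sets. How many of all probe sets hold a group apart from all others, as Pbx4, Pknox1 and Tgif1 do, was not counted.

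**Figure D3:**
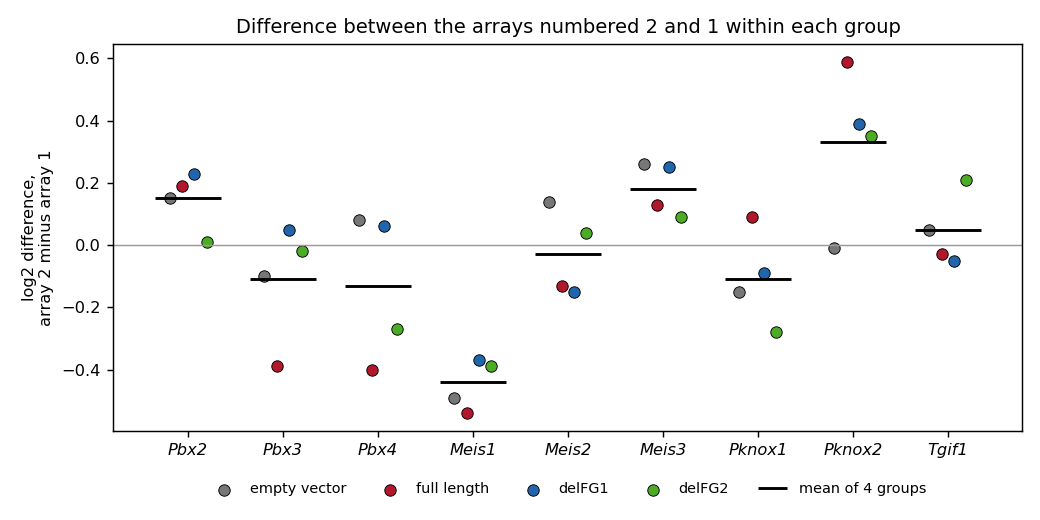
log2 difference between the array numbered 2 and the array numbered 1 within each group (points, by group) and the mean of the 4 groups (bars) for each member. Meis1 lies between -0.54 and -0.37 in all groups and Pknox2 between -0.01 and 0.59; the means of these members, -0.44 and 0.33, passed at an adjusted p under 0.05.

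Meis1 and Pknox2 were the 2 of 9 members that differed between the numbers, beside 11.2% of all probe sets. Marker lists moved with the number as well: 10 of 11 neutrophil genes, 7 of 9 mast cell, basophil and eosinophil genes and 4 of 9 monocyte and macrophage genes were higher in the arrays numbered 2. Of 10 progenitor genes 5 were lower there and 1 higher. The summed neutrophil signal in linear intensity was 47193 and 57522 in the empty vector arrays numbered 1 and 2, 35208 and 44729 with the full-length fusion, 34184 and 45271 with delFG1, and 44629 and 53262 with delFG2. It was lower in both full-length arrays than in either empty vector array, and so it was in both delFG1 arrays. Against the empty vector, Pbx3 and Meis1 differed by 1.74 and 0.80 with the full-length fusion. Their differences were 0.08 and -0.03 with delFG1, and 0.01 and 0.08 with delFG2. How the neutrophil signal bears on these differences was not tested. No probe set was at 0, since the lowest intensity was 18.3, so a marker above 0 does not show that its cell type was present. With the block, 35 of the 57 markers passed between full-length fusion and empty vector (6.61% of all probe sets) and 34 between delFG1 and empty vector (6.12%). For delFG2, 12 passed against full length (0.468%), 2 against empty vector (0.505%) and 14 against delFG1 (0.537%). Between delFG1 and full length 0 of 57 passed by limma in either fit (3 and 10 with an unadjusted p under 0.05). Without the block 451 of all probe sets had an unadjusted p under 0.05 in that comparison. The part of these marker shifts in the differences of Pbx3, Meis1 and Pknox2 was not tested.

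HOX genes encode the partners of these cofactors. Of 37 measured HOX genes 7 rose with the full-length fusion (12 with the block), with a median of 0.13, where 0.124% of all probe sets passed in either direction (6.61% with the block). Hoxa5 (2.16), Hoxa7 (2.15), Hoxa6 (2.26) and Hoxc6 (1.06) had the smallest p. Against the full-length fusion 0 passed with delFG1 by limma, and 2 fell with the block, Hoxb5 and Hoxa9. Without the block 11 had an unadjusted p under 0.05, beside 451 of all probe sets. With delFG2 3 fell, Hoxa5, Hoxc6 and Hoxa7 (8 with the block). Over all probe sets 0.00918% passed with delFG1 (0.078% with the block) and 0.0275% with delFG2 (0.468% with the block). Hoxa9 is among the 7 that rose and the 2 that fell with delFG1. Whether its probe set also reads the introduced fusion is not known.

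Relative to the empty vector, delFG1 still held Hoxa5, Hoxa6 and Hoxa7 higher, by 1.33, 1.43 and 1.33 (adjusted p = 0.0207, 0.0318 and 0.0298 by limma), where Pbx3 stood at 0.08 and Meis1 at -0.03. With delFG2 these Hoxa genes stood at 0.58, 0.81 and 0.51, and 0 of 37 HOX genes passed in either fit (6 with an unadjusted p under 0.05 in each). Over all probe sets 0.00459% passed there without the block and 0.505% with it. An unadjusted p under 0.05 was held by 965 of them without the block. The difference between HOX and TALE genes in what delFG1 left was not tested.

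The remaining TALE genes and the genes of proteins that work with this family gave no call between groups. Of 8 other TALE genes measured, the Irx genes, Mkx and Tgif2, 0 passed in any of the 6 comparisons in either fit by limma (at most 1 with an unadjusted p under 0.05). Tgif2, a paralogue of Tgif1, was higher by 0.31 with the full-length fusion (adjusted p = 0.421), where Tgif1 stood at -0.29. Of 13 regulators and chromatin partners 0 passed in any of these 6 comparisons in either fit by limma (at most 3 with an unadjusted p under 0.05). Over all probe sets 0% to 0.129% passed without the block and 0.078% to 6.61% with it. An unadjusted p under 0.05 was held by 451 to 2093 of all probe sets without the block. Beside such shares, 0 calls among so few genes say little. The smallest p values between full-length fusion and empty vector were those of the acetyltransferase genes Ep300 (-0.34) and Crebbp (-0.37). Men1, which encodes the menin adaptor of MLL, differed by 0.19 and Psip1, a chromatin tether of that complex, by 0.16.

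Among 20 progenitor and leukaemia genes that are studied with HOXA9 and MEIS1, Eya1, a transcriptional coactivator, rose with the full-length fusion by 2.43. Without the block Eya1 alone passed, against 0.124% of all probe sets. With the block 7 rose and 2 fell, against 6.61%, and the list median was 0.23. Mef2c was higher by 1.08, Cd34 by 0.86, and Ccnd1 was lower, at -0.55 (adjusted p = 0.000215, 0.000189 and 0.0127 by limma with the block). Without it these genes did not pass (adjusted p = 0.096, 0.335 and 0.228 by limma). Eya1 fell by 2.85 with delFG1 and fell by 2.84 with delFG2, and Mef2c fell with the block in both (-0.79 and -0.91). This list also differed between the numbers, with 2 genes higher and 10 lower in the arrays numbered 2, beside 11.2% of all probe sets.

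**Figure D4:**
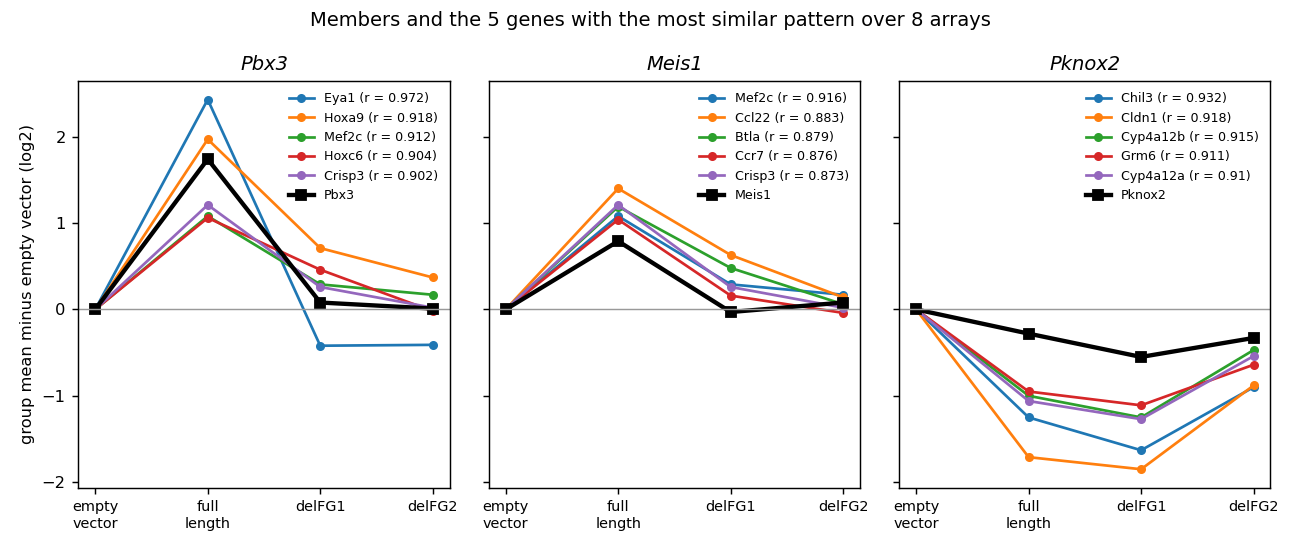
Group means minus the empty vector mean (log2) for Pbx3, Meis1 and Pknox2 (black squares) and, for each, the 5 genes with the highest Pearson r to it over the 8 arrays (coloured circles, r in the key). In the Pbx3 and Meis1 panels every line peaks at full length, while in the Pknox2 panel all lines are lowest with delFG1.

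The genes most like a member were ranked by Pearson r over the 8 arrays, among genes whose group means span at least 1 on the log2 scale. The arrays share groups and numbers, so r is a description only. For Pbx3 these were Eya1 (r = 0.972), Hoxa9 (0.918), Mef2c (0.912), Hoxc6 (0.904) and Crisp3 (0.902), out of 151 candidates. The Crisp3 means with empty vector, delFG1 and delFG2 (4.53, 4.79 and 4.55) were under the 25th percentile of the probe sets (5.38 to 5.45). So were those of Hoxc6 with empty vector and delFG2 (5.29 and 5.27). The Eya1 means with delFG1 and delFG2 were 6.17 and 6.18 against 6.59 with the empty vector. These differences passed in neither fit (adjusted p = 0.0609 and 0.171 by limma with the block). The Hoxa9 means were 8.16 and 7.82 against 7.45. That difference passed for delFG1 with the block alone (adjusted p = 0.00661 by limma) and for delFG2 in neither fit (0.283 with the block). Whether the Hoxa9 probe set also reads the introduced fusion is not known. For Meis1 they were Mef2c (0.916), the chemokine gene Ccl22 (0.883), Btla (0.879), the chemokine receptor gene Ccr7 (0.876) and Crisp3 (0.873). For Pknox2 they were Chil3 (0.932), Cldn1 (0.918), Cyp4a12b (0.915), Grm6 (0.911) and Cyp4a12a (0.910); the Cyp4a12 genes are near-identical copies whose signals are uncertain.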

How the data were processed

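Biotin-labelled material from total RNA was hybridised to Affymetrix GeneChips, per the labels' protocols. The authors deposited linear intensities of 28853 probe sets for 8 arrays. The sources used here do not give the background correction, summarisation or normalization behind them. Of these probe sets, 21789 carried 1 gene symbol and were tested, 1621 carried several and 5443 none. Members matched RefSeq symbols in 9 of 9 cases. The values were taken as log2(intensity + 1) without filter, and fitted with limma 3.58.1 in R 4.3.3 (lmFit, eBayes with an intensity trend) with 4 group means over all 8 arrays. Residual and prior degrees of freedom were 4 and 4.62, and 3 and 7.78 with the replicate block. Tests are two-sided, with Benjamini-Hochberg adjustment over all tested probe sets and a threshold of 0.05. The code was tested on simulated data.

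Arrays with the same number deviated together from the means of their groups, in every pair of groups (r across genes between 0.401 and 0.640), so the numbers in the labels were taken to pair the samples. Members and gene lists were chosen with earlier results of these data known. Named genes are all members, the 5 genes most like each called member, and up to 4 genes of smallest p per list. Predicted genes, Riken clones, olfactory and vomeronasal receptor genes and small RNA genes were left out of the ranking by likeness. Alternatives covered the block, the pseudocount, a signal filter, the trend, centring, the mean of a gene's probe sets, the arrays fitted and each array left out. The number of arrays limits the precision.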

Additional observations from a re-analysis of the deposited data

How the results depend on the processing

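With the replicate block, members passing went from 1 to 2 between full-length fusion and empty vector and in both mutant comparisons with full length (Meis1 added to Pbx3), and from 0 to 1 between delFG1 and empty vector. It changed no other call of a member. With only the arrays of the compared groups, 0 members passed between delFG1 and full length. Leaving out 1 array gave 1 to 3 members between full-length fusion and empty vector (1 without the block), 0 to 2 for each mutant against full length, 0 to 3 for delFG1 and 0 to 1 for delFG2 against the empty vector, and 0 between the mutants. The calls of Pbx3 kept their direction in every setting run. A pseudocount of 32, a mean signal of at least 6, no trend, median centring or the mean of a gene's probe sets changed no count of members, and each member has 1 probe set.

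Over all probe sets, the counts without and with the block were 27 and 1440 (full length against empty vector), 2 and 17 (delFG1 against full length), 6 and 102 (delFG2 against full length), 28 and 1333 (delFG1 against empty vector), 1 and 110 (delFG2 against empty vector) and 0 and 117 (between mutants). Without the trend delFG2 against full length gave 3, delFG1 against the empty vector 5 and delFG2 against it 0, and with only the compared arrays delFG1 against full length gave 1 and delFG2 against the empty vector 2. Leaving out 1 array moved these counts, and so the shares beside the members. Without the block they ranged in the same order of comparisons from 7 (without the empty vector array numbered 1) to 36, 1 to 4, 1 (without either delFG2 array) to 7, 0 (without the empty vector array numbered 1) to 34, 0 to 2, and 0 to 4 (without the delFG1 array numbered 2). With the block they ranged from 385 (full-length array numbered 2 left out) to 2378, 5 (full-length array numbered 1 left out) to 44, 17 (without the delFG2 array numbered 1) to 324, 487 (without the delFG1 array numbered 1) to 2272, 2 (without the delFG2 array numbered 1) to 1065, and 1 (without the delFG1 array numbered 1) to 313. The highest with the block came without the empty vector array numbered 1 (324 and 313) or numbered 2 (the other 4).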
